A study of Mus musculus with 18 samples.

Results

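The 7 genes followed here encode enzymes that build glycans and lie on mouse chromosome 16: St6gal1, St3gal6, B4galt4, Alg1, Alg3, Pmm2 and Xxylt1. They were taken by gene symbol, and each had 1 row of the 40620 in the count table, so all 7 members were found. The cells were MC3T3-E1, a mouse preosteoblast line that is grown to form mineralising osteoblasts, and every library carried a stable lentiviral short hairpin RNA. The shScramble cells, labelled wild type, carried a scrambled hairpin, and the shRcor2-18 and shRcor2-20 cells, labelled RCOR2 knockdown, carried 1 of 2 hairpins against Rcor2, which encodes a CoREST-type transcriptional corepressor. Libraries labelled sample 1 and sample 2 were made of every construct at 0h, 24h and 7d. The osteogenic medium that the protocol describes held 10 nM dexamethasone, a synthetic glucocorticoid, with 50 µg/ml ascorbic acid and 5 mM beta-glycerophosphate. The question was how transcripts of these enzymes differed over the course of differentiation and with the hairpins. The labels do not say whether samples 1 and 2 came from separate cultures or infections, or whether a line was 1 clone, so p-values measure the spread between libraries only, and that spread could be technical.

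Glycosylation proceeds along an assembly line. Sugars are first activated, a lipid-linked oligosaccharide is built on the membrane of the endoplasmic reticulum and moved as a block onto asparagine residues, and Golgi enzymes then trim and extend the N-glycan until sialic acid caps it. Other enzymes add short O-linked sugars, among them the glucose and xylose residues on epidermal growth factor-like repeats of Notch receptors. In bone cells, matrix proteins and cell surface receptors carry such glycans.

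The 15 libraries used held 3504808 to 6139315 counts each. The 3 libraries of 0h labelled sample 1 held 2572026 to 9798498 counts and were left out of the tests; their values are in the closing section. In much of the table the gene names do not go with the reads: of 380 coding genes of ribosomal, proteasomal, respiratory and similar families on other chromosomes, 78 (20.5%) reached 20 counts per 1000000 counts of the library (CPM). Means for this, and for finding the stretch below, were taken over all 18 libraries, 0h sample 1 included. Along chromosome 16, from its first coding gene to Cbr3, 611 of the 646 coding rows in order, 16 of 17 such genes (94.1%) reached that level. All 7 enzymes lie in this stretch, whose end was set after the data were seen and depends on the search. Under another setting that also scored olfactory receptor and keratin-associated genes, the stretch ended at Cmss1 after 445 genes and St3gal6 fell outside it; without the list of commonly expressed genes as well, it ended at Kpna1 after 322 genes and B4galt4 was outside too. The row named Rcor2 and the osteoblast marker genes lie outside the stretch, so neither the knockdown nor the cell type could be checked by name. Of the markers listed for other cell types, Adipoq, the adipocyte hormone gene, lies inside it and had a mean of 0.20 CPM.

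None of the 7 enzyme genes passed an adjusted p of 0.05 in any comparison by edgeR's quasi-likelihood test over 11387 rows, of which 0.0176% to 6.89% were called. Both sialyltransferase genes and the galactosyltransferase gene varied most between libraries, whereas the highest and lowest libraries of Alg1, Alg3, Pmm2 and Xxylt1 differed by less than 2-fold. The widest difference was that of St6gal1, which had a mean of 11.1 ± 0.81 CPM at 0h (SD, n = 3), 36.1 ± 18.2 CPM at 24h (SD, n = 6) and 16.6 ± 3.91 CPM at 7d (SD, n = 6). Scaled by exon length, the order of mean levels was Xxylt1 at 66.0 CPM per kb, Alg3 at 43.9, Alg1 at 23.0, Pmm2 at 20.1, B4galt4 at 11.7, St6gal1 at 4.74 and St3gal6 at 1.32 CPM per kb. Each gene exceeded the next in 15 of 15 libraries except Alg1, which exceeded Pmm2 in 10 of 15. In such bulk RNA, fewer expressing cells and less RNA per cell cannot be told apart. The plot of levels in all libraries shows each value.

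**Figure D1:**
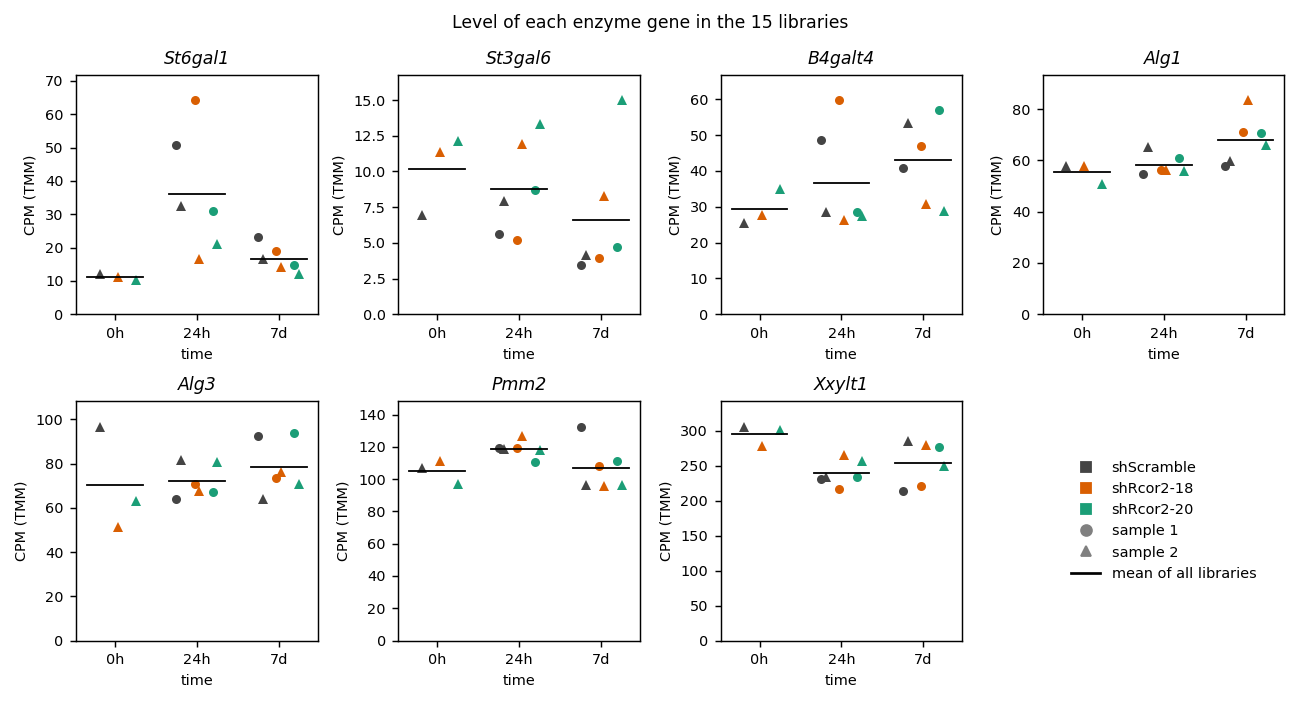
Level of each enzyme gene in the 15 libraries. Points are single libraries in TMM-scaled CPM (vertical axis, from 0) by time, coloured by construct, with circles for sample 1 and triangles for sample 2, and black lines are means over constructs. St6gal1 spans 16.7 to 64.2 CPM at 24h and 10.4 to 11.97 CPM at 0h, while Pmm2 stays between 95.8 and 133 CPM throughout.

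Pmm2 (ENSMUSG00000022711) encodes the phosphomannomutase that prepares mannose for GDP-mannose, the donor used by the mannosyltransferases. Its level was 107 CPM in shScramble, 111 in shRcor2-18 and 97.3 in shRcor2-20 cells at 0h. At 24h the 6 libraries ran from 110 to 127 CPM with a median of 119, and at 7d from 95.8 to 133 CPM with a median of 102. The times overlapped, and the log2 change was 0.18 ± 0.12 (SE) from 0h to 24h and -0.16 ± 0.10 from 24h to 7d (adjusted p = 0.624 and 0.44). Its exons share 39 bases with Tmem186 on the other strand.

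Alg1 (ENSMUSG00000039427) encodes the enzyme that adds the first mannose to the lipid-linked oligosaccharide on the cytosolic face of the endoplasmic reticulum. It stood at 57.9 CPM in shScramble, 57.8 in shRcor2-18 and 51.0 in shRcor2-20 cells at 0h. The range was 54.6 to 65.3 CPM at 24h, with a median of 56.2, and 57.8 to 83.5 CPM at 7d, with a median of 68.4. In all, 5 of 6 libraries were higher at 7d than the library of the same construct and number at 24h, and the exception was shScramble sample 2. The log2 change was 0.29 ± 0.11 from 0h to 7d (adjusted p = 0.168) and 0.22 ± 0.09 from 24h to 7d (adjusted p = 0.224). Of the exon bases of Alg1, 472 (17.6%) are shared with Eef2kmt, a lysine methyltransferase gene on the opposite strand with a mean of 145 CPM. Whether the counting used strand is not given in the sources used here, so reads of the pair may be split between them. Eef2kmt was also the gene whose profile over the 15 libraries lay nearest to that of Alg1 in a set of 355 genes that includes Alg1, with a root mean square difference of 0.086 on the log2 scale. Its means were 129 ± 7.81 CPM at 0h (SD, n = 3), 141 ± 11.5 at 24h and 159 ± 13.4 at 7d (SD, n = 6 each), and the part of the shared bases in the likeness was not tested.

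Alg3 (ENSMUSG00000033809) encodes the mannosyltransferase that extends the same precursor on the lumenal face of the membrane. At 0h it was at 96.7 CPM in shScramble, 51.1 in shRcor2-18 and 63.1 in shRcor2-20 cells. The libraries ran from 64.0 to 81.7 CPM at 24h (median 69.1) and from 63.7 to 93.6 CPM at 7d (median 74.9). The 3 libraries of 0h therefore spanned a wider range than the 12 later ones, with the scrambled library highest. Log2 changes were 0.08 ± 0.16 from 0h to 24h and 0.12 ± 0.13 from 24h to 7d (adjusted p = 0.925 and 0.699). Exon bases of Alg3 are shared with Eef1akmt4 (143 bases) and Gm49333 (126 bases) on the other strand.

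B4galt4 (ENSMUSG00000022793) encodes a Golgi galactosyltransferase that adds to N-acetylglucosamine the galactose on which sialic acid can then be placed. It was at 25.4 CPM in shScramble, 27.8 in shRcor2-18 and 34.9 in shRcor2-20 cells at 0h. At 24h 4 libraries lay between 26.3 and 28.5 CPM, and sample 1 of shScramble and of shRcor2-18 were at 48.8 and 59.8 CPM. At 7d the values ran from 28.8 to 57.1 CPM with a median of 43.9. High and low libraries occurred at both later times, and the log2 change was 0.31 ± 0.35 from 0h to 24h and 0.25 ± 0.28 from 24h to 7d (adjusted p = 0.819 and 0.707). With same-numbered samples of a construct as a block, the 24h against 0h value of B4galt4 was -0.00016.

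St6gal1 (ENSMUSG00000022885) encodes the sialyltransferase that caps galactose-ended N-glycans with sialic acid. RefSeq gives it 3 transcription starts, and the counts do not separate them. The 250 bases before each start are shown because the gene has the widest range over time, and the windows of Alg1 and of the second start of St3gal6, which held the most GC boxes among the members, are set beside them. Coordinates are those of RefSeq on GRCm38.p6, capitals mark the GC box GGGCGG on either strand with overlaps allowed, and lower case alone means that it is not in the window.
St6gal1 start 1, chr16:23224490-23224739, plus strand: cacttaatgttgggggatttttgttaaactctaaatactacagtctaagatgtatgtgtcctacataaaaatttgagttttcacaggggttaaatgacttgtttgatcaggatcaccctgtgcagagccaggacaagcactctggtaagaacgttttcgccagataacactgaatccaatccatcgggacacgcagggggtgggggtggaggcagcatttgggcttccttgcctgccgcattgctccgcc
St6gal1 start 2, chr16:23225771-23226020, plus strand: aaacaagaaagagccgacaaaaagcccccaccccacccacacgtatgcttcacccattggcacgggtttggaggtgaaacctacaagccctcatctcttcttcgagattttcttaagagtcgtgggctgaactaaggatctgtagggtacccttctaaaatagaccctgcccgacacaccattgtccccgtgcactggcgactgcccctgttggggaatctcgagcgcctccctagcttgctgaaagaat
St6gal1 start 3, chr16:23290220-23290469, plus strand: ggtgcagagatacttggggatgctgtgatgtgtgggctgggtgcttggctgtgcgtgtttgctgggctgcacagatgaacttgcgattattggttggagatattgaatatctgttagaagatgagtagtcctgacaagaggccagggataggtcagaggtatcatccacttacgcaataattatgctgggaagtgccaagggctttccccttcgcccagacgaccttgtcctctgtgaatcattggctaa
Alg1 start 1, chr16:5233371-5233620, plus strand: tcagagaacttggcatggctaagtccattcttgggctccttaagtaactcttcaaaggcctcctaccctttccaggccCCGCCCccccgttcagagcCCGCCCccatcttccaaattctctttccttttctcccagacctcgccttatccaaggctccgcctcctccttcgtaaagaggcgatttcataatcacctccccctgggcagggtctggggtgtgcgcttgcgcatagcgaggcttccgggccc
St3gal6 start 2, chr16:58523427-58523676, minus strand: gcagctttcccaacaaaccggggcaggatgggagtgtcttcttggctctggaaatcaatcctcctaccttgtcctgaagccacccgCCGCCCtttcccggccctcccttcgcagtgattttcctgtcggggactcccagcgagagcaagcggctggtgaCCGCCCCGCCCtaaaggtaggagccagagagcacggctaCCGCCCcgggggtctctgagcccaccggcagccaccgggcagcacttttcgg
The GC box was found 0 times before the 3 starts of St6gal1, 2 times before Alg1 and 4 times before the second start of St3gal6. B4galt4 and Pmm2 had 1 match each, Alg3, Xxylt1 and the first start of St3gal6 had 0, and 32.7% of 32851 promoter windows in the table hold at least 1. The St6gal1 windows also held no match on either strand to the glucocorticoid receptor hexamer AGAACA (16.1% of windows), the palindrome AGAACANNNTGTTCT (0.00913%), which contains that hexamer, the RUNX core TGTGGT (14.0%) or TATAAA (12.4%). Among the other members, Pmm2 had 1 such hexamer and the first start of St3gal6 had 1 RUNX core.

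St6gal1 was at 11.97 CPM in shScramble, 11.1 in shRcor2-18 and 10.4 in shRcor2-20 cells at 0h. At 24h it was at 50.9 and 32.5 CPM in shScramble samples 1 and 2, 64.2 and 16.7 in shRcor2-18, and 31.0 and 21.1 in shRcor2-20. At 7d the same order of libraries gave 23.1 and 16.5, 18.96 and 14.3, and 14.9 and 12.04 CPM. Every library of 24h and of 7d lay above the 3 libraries of 0h used. Of all rows tested, 4.55% had all libraries higher at 24h than at 0h and 7.97% at 7d than at 0h. The 24h and 7d ranges overlapped, although each of the 6 libraries was lower at 7d than that of the same construct and number at 24h, at 0.295 to 0.855 of its level; 9.16% of rows were lower in all 6.

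The St6gal1 difference from 0h to 24h was 1.66 ± 0.44 on the log2 scale, or 3.16-fold with a 95% interval of 1.58 to 6.35 (unadjusted p = 0.00507, adjusted p = 0.126). From 24h to 7d it was -1.10 ± 0.33 (unadjusted p = 0.0103, adjusted p = 0.115), and from 0h to 7d 0.56 ± 0.42 (adjusted p = 0.492). DESeq2 on the same 15 libraries gave adjusted p = 0.0103 and 0.0376 for the 24h against 0h and 7d against 24h differences. These fits had no block for sample number, and 0h had sample 2 only. With same-numbered samples of a construct as a block, edgeR gave 1.19 for 24h against 0h (adjusted p = 0.254). The shRcor2-18 libraries of 24h weighed heavily on the 24h against 0h and 7d against 24h values of edgeR. Without sample 1 of shRcor2-18 at 24h these were 1.24 ± 0.27 and -0.68 ± 0.22. Without sample 2 they were 1.88 ± 0.27 and -1.31 ± 0.21. With the sample 1 libraries of 0h included, the 24h against 0h value was 0.26 (adjusted p = 0.744) and that of 7d against 0h turned to -0.82. The plot of St6gal1 under each setting gives the whole range.

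**Figure D2:**
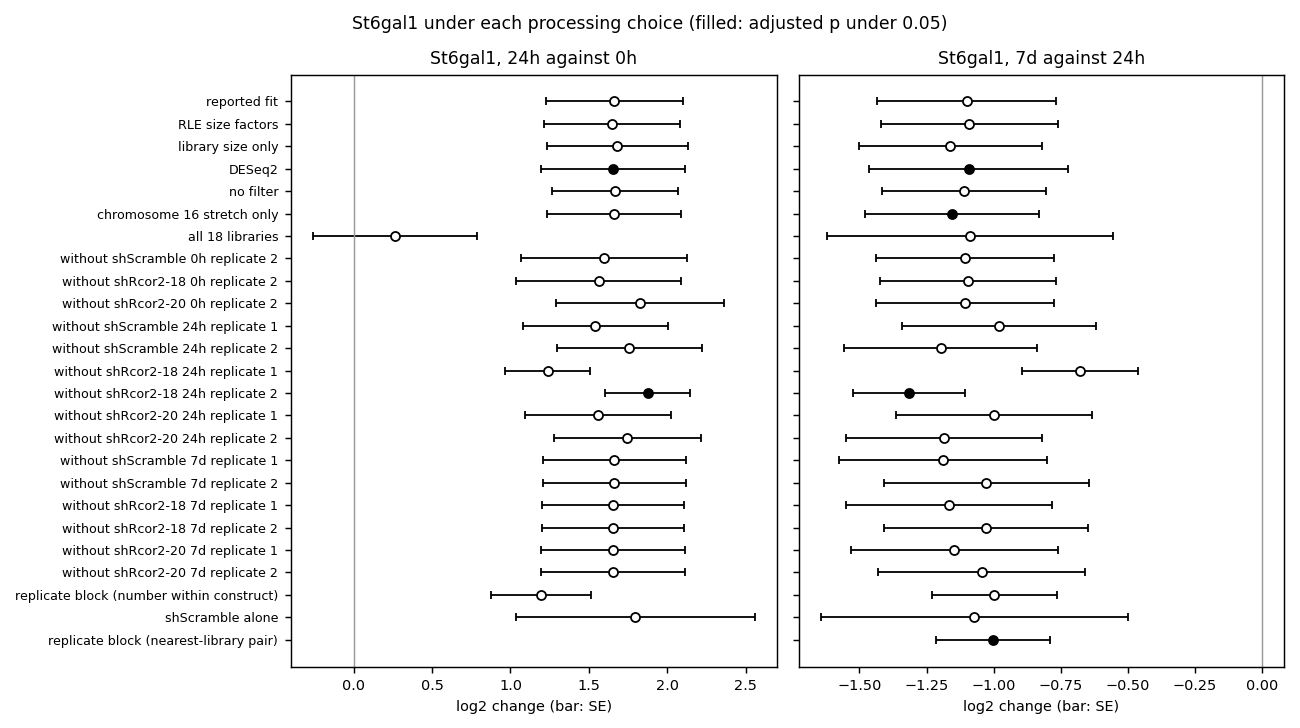
Log2 change of St6gal1 from 0h to 24h (left) and from 24h to 7d (right) under each processing choice. Points are estimates, bars are 1 SE, and filled points have an adjusted p under 0.05. Settings range from 0.26 to 1.88 on the left and from -1.31 to -0.68 on the right, and 2 of 23 and 4 of 24 alternatives are filled. The filled points on the right include the nearest-library pair block. That block was added after the data were seen, with pairs picked from the same counts.

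St3gal6 (ENSMUSG00000022747) encodes another sialyltransferase, which places sialic acid on galactose in a different linkage. Its counts were the lowest of the members, 13 to 66 per library. At 0h it was at 6.94 CPM in shScramble, 11.3 in shRcor2-18 and 12.2 in shRcor2-20 cells. At 24h samples 1 and 2 were at 5.62 and 7.92 CPM in shScramble, 5.19 and 11.9 in shRcor2-18, and 8.67 and 13.3 in shRcor2-20; at 7d they were at 3.45 and 4.13, 3.94 and 8.26, and 4.72 and 14.99 CPM. The times overlapped, and both shRcor2 sample 2 libraries were the highest at each later time. Log2 changes were -0.20 ± 0.46 from 0h to 24h, -0.69 ± 0.46 from 0h to 7d and -0.49 ± 0.38 from 24h to 7d (adjusted p = 0.947, 0.433 and 0.554). With same-numbered samples of a construct as a block, the 24h against 0h value of St3gal6 was 0.19. Of its exon bases, 1603 (26.0%) lie opposite exons of Dcbld2, a membrane protein gene with a mean of 242 CPM, so its level is uncertain if strand was not used. Dcbld2 stood 129th in likeness to St3gal6, at a root mean square difference of 0.66.

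Xxylt1 (ENSMUSG00000047434) encodes the xylosyltransferase that adds the outer xylose to the xylose already on O-linked glucose of epidermal growth factor-like repeats. It was at 306 CPM in shScramble, 279 in shRcor2-18 and 302 in shRcor2-20 cells at 0h. The 24h libraries ran from 218 to 266 CPM with a median of 234, and the 7d libraries from 214 to 286 CPM with a median of 264. All 6 libraries of 24h were below the 3 of 0h, as were those of 4% of rows, whereas 7d overlapped both. The log2 change was -0.30 ± 0.13 from 0h to 24h (unadjusted p = 0.0423, adjusted p = 0.377) and 0.09 ± 0.10 from 24h to 7d (adjusted p = 0.738).

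Counted over the members, 0 of 7 were called from 0h to 24h, where 2.14% of rows were; 2 had an unadjusted p under 0.05, St6gal1 and Xxylt1, as did 12.4% of rows. From 0h to 7d 0 of 7 were called against 6.89% of rows, with Alg1 alone under 0.05 unadjusted, where 22.4% of rows were. From 24h to 7d 0 of 7 were called against 3.02% of rows, with St6gal1 and Alg1 under 0.05 unadjusted, where 19.1% of rows were. DESeq2 called 1, 0 and 1 member in the 3 comparisons, the 1 being St6gal1, and 4.97%, 12.2% and 9.45% of the rows it was given. At such background shares these counts do not set the members apart. The median log2 change of the members was 0.08, 0.21 and 0.09 in that order, beside 0.05, 0.06 and -0.02 over all rows and 0.0024, 0.074 and 0.060 over the 361 genes tested of the chromosome 16 stretch. Of those genes, 2.49%, 13% and 6.09% were called.

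**Figure D3:**
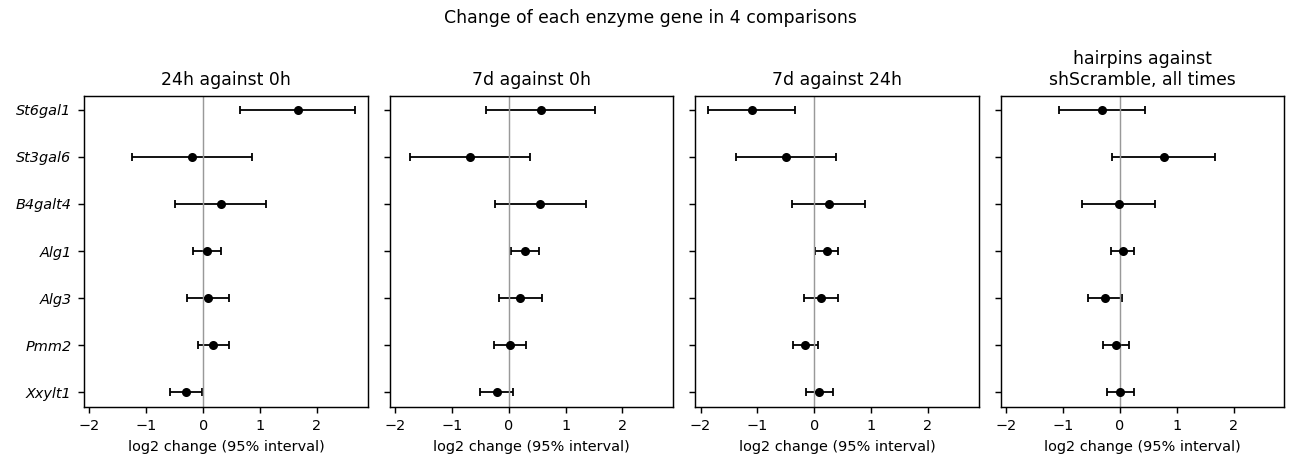
Log2 change of each enzyme gene in the 3 time comparisons and with the hairpins over all times. Points are edgeR estimates and bars 95% intervals; the intervals of St6gal1 reach from 0.66 to 2.67 for 24h against 0h and from -1.86 to -0.34 for 7d against 24h, before adjustment for the number of rows, and all 7 intervals of the hairpin comparison include 0.

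The comparison of both hairpins with shScramble asked how the enzymes differ in cells labelled as Rcor2 knockdown. Over all times 0 of 7 members were called, where 0.0966% of rows were, and 0 had an unadjusted p under 0.05, where 6.84% of rows did; DESeq2 also called 0, with 0.957% of rows called. The log2 difference of St3gal6 was the largest in size at 0.77 ± 0.40 (95% interval -0.14 to 1.68, adjusted p = 0.761), and that of Alg3 was -0.26 ± 0.13 (-0.56 to 0.04, adjusted p = 0.747). St6gal1 differed by -0.31 ± 0.33 (-1.06 to 0.45) and B4galt4 by -0.02 ± 0.28 (-0.66 to 0.62), which as ratios are intervals of 0.479 to 1.36 and 0.632 to 1.54. For Alg1, Pmm2 and Xxylt1 the intervals were -0.15 to 0.25, -0.29 to 0.15 and -0.23 to 0.25. Taken alone, shRcor2-18 and shRcor2-20 gave St3gal6 differences of 0.58 ± 0.44 and 0.96 ± 0.44 and St6gal1 differences of -0.13 ± 0.38 and -0.48 ± 0.39. For Alg3 they were -0.35 ± 0.15 and -0.17 ± 0.15. The former, with an unadjusted p of 0.049 and an adjusted p = 0.821 by edgeR, was the only single-hairpin value of a member under 0.05 unadjusted, as were 6.06% of rows for shRcor2-18.

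By time, Alg3 at 0h (-0.77 ± 0.27, unadjusted p = 0.0222, adjusted p = 0.548) and Alg1 at 7d (0.31 ± 0.13, unadjusted p = 0.0498, adjusted p = 1) had the only unadjusted p under 0.05 among members. The 0h value compares 1 shScramble library with 2 hairpin libraries. Alg3 differed by -0.03 ± 0.20 at 24h and by 0.01 ± 0.20 at 7d. Without that shScramble library of 0h, the Alg3 value averaged over times was -0.0071 in place of -0.26, from 24h and 7d only. No member was called at 0h, 24h or 7d, where 0.176%, 0.0176% and 0.0439% of rows were, and 7.97%, 2.65% and 3.34% of rows had an unadjusted p under 0.05. The change of the hairpin difference from 24h to 7d was called for 0 of 7 members, with 0.0615% of rows called and no member under an unadjusted p of 0.05, where 3.17% of rows were; the estimate for Alg1 was 0.37 ± 0.19 (unadjusted p = 0.0807).

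Libraries of different constructs were often closer to each other than the 2 samples of a construct. Over the chromosome 16 genes tested, at both 24h and 7d, sample 1 of shScramble was nearest to sample 1 of shRcor2-18 (pair 1), sample 2 of shScramble to sample 1 of shRcor2-20 (pair 2), and the sample 2 libraries of shRcor2-18 and shRcor2-20 to each other (pair 3). Their chi-square distance, per degree of freedom, was 2.74 to 5.23 inside a pair and 14.3 to 33.98 between the 2 samples of a group. At 0h too, the sample 2 libraries of shRcor2-18 and shRcor2-20 were nearest to each other, at 2.53. By contrast, shScramble sample 2 of 0h was 23.6 from its nearest library. The part of this distance in the 0h hairpin differences was not tested. Pairs 1, 2 and 3 were read from the data and are not groups of the study, so the levels by pair are described with no test. St6gal1, St3gal6 and B4galt4 separated by pair at both times, and Xxylt1 did so at 24h. The pairs were picked as the nearest libraries over genes of this stretch. The share of those genes that separate by pair was not computed, so this does not set the members apart. At 24h St6gal1 was at 50.9 to 64.2 CPM in pair 1, 31.0 to 32.5 in pair 2 and 16.7 to 21.1 in pair 3, and at 7d at 18.96 to 23.1, 14.9 to 16.5 and 12.04 to 14.3 CPM. The pairs did not overlap at either time and kept their order.

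St3gal6 had the opposite order, with 5.19 to 5.62 CPM in pair 1, 7.92 to 8.67 in pair 2 and 11.9 to 13.3 in pair 3 at 24h, and 3.45 to 3.94, 4.13 to 4.72 and 8.26 to 14.99 CPM at 7d. B4galt4 at 24h was at 48.8 to 59.8 CPM in pair 1 and at 26.3 to 28.5 in the other 2 pairs. At 7d pair 2 was highest for B4galt4, at 53.4 to 57.1 CPM, pair 1 was at 40.8 to 47.0 and pair 3 at 28.8 to 30.8 CPM. For Xxylt1 pair 1 was lowest at both times, at 218 to 232 and 214 to 222 CPM. Alg1, Alg3 and Pmm2 had pairs that overlapped at both times. Pair 3 holds hairpin libraries only, whereas pairs 1 and 2 hold 1 shScramble and 1 hairpin library each. Within those 2 pairs St3gal6 was at 5.62 CPM in the shScramble and 5.19 in the hairpin library and at 7.92 and 8.67 CPM at 24h, and at 3.45 and 3.94 and at 4.13 and 4.72 CPM at 7d. A fit to the 24h and 7d libraries with the pair as a block, added after the data were seen, gave hairpin differences of 0.11 ± 0.28 for St3gal6 and -0.01 ± 0.25 for St6gal1. The values of 0.77 and -0.31 over all times also include 0h. The pairs were picked for likeness on these counts, and pairs 1 and 2 each join a shScramble to a hairpin library. That choice favours small hairpin differences inside a pair, so no conclusion is drawn from the fit.

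**Figure D4:**
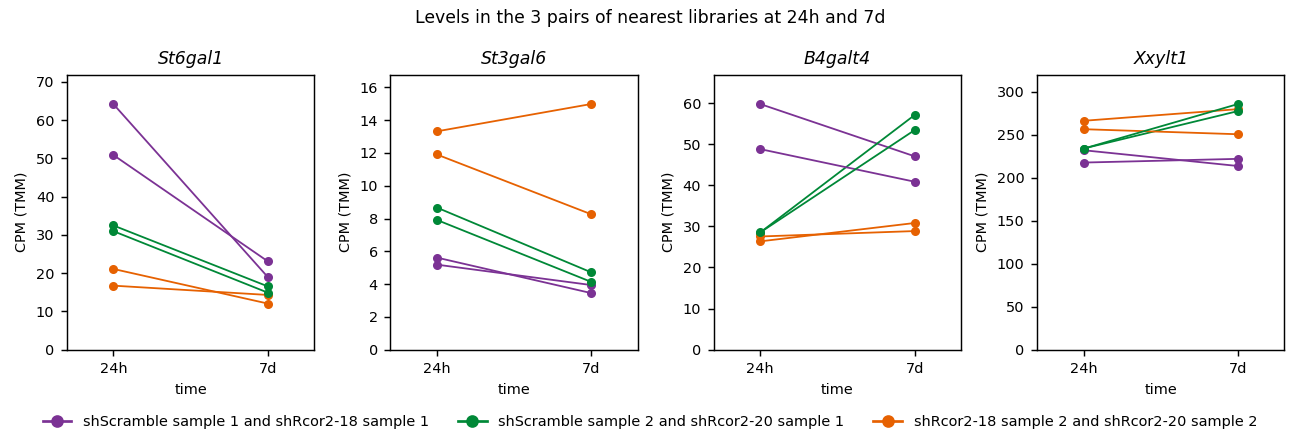
Levels of 4 enzyme genes at 24h and 7d in the 3 pairs of nearest libraries. Each line joins the 24h and 7d libraries of 1 construct and sample number in TMM-scaled CPM, coloured by pair; St6gal1 lines lie in the order pair 1, pair 2, pair 3 at both times, and St3gal6 lines in the reverse order.

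Of 262 genes listed for glycosylation, 254 had a row and 13 lay in the chromosome 16 stretch, 7 of them the members. The other 241 lie elsewhere and were not taken as genes, among them Pigp and B3galt5 on chromosome 16 past the stretch. Of the other 6, 4 were tested and 0 were called from 0h to 24h, from 0h to 7d, from 24h to 7d or with the hairpins by edgeR, with 1, 1, 2 and 0 at an unadjusted p under 0.05, beside 12.4%, 22.4%, 19.1% and 6.84% of all rows. Pigx, a subunit of the mannosyltransferase of glycosylphosphatidylinositol anchors, was at 31.7 ± 2.78 CPM at 24h and 42.6 ± 7.26 at 7d (SD, n = 6 each), a log2 change of 0.43 ± 0.12 (unadjusted p = 0.00774, adjusted p = 0.1). Poglut1, which puts glucose on the repeats that Xxylt1 later modifies, was at 237 ± 21.0 CPM at 0h (SD, n = 3) and 294 ± 28.6 at 24h (SD, n = 6), a log2 change of 0.32 ± 0.13 (adjusted p = 0.373). Nagpa, which uncovers the mannose phosphate tag of lysosomal enzymes, had a log2 change of -0.26 ± 0.10 from 24h to 7d (adjusted p = 0.193). Slc35a5, of a nucleotide sugar transporter family, was at 61.9 to 102 CPM at 24h and 7d, with 0.17 ± 0.13 from 24h to 7d (adjusted p = 0.575). B3gnt5 and Pigz had 8 and 10 counts over the 15 libraries and were not tested.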

How the data were processed

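RNA was sequenced as 100 bp reads, per the labels' protocols. The authors deposited whole-number counts per gene for 18 libraries. TopHat2 2.0.9, DESeq2 and build mm9 are named in the submitters' processing notes, with no role given; the sources used here name no counter and no strand setting. Of the identifiers, 97.4% were in GENCODE vM21, used for gene order and exon length. The 680 rows without a symbol were kept.

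Libraries were grouped by their titles. edgeR 4.0.16 (R 4.3.3) fitted 9 groups of construct and time over 15 libraries and all rows passing its expression filter, with TMM scaling, quasi-likelihood tests with 6 residual degrees of freedom and Benjamini-Hochberg adjustment over 11387 rows. Standard errors were taken as the log2 change over the root of F. Levels are counts per 1000000 (CPM) after TMM; precision is limited by counts of 13 to 66 for St3gal6. The script was tested on simulated data. The protocol names other late time points than the 7d of the titles, which were used.

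The members and the gene lists were chosen with earlier results of these data known. All members and listed glycosylation genes of the stretch are named; other genes appear only as neighbours, overlapping genes or nearest profiles.

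Same-numbered samples of a construct deviated together at 24h and 7d (r = 0.44, 0.41 and 0.32 over 361 genes), which was taken as pairing. With that replicate block the rows called numbered 63, 478 and 193 for 24h against 0h, 7d against 0h and 7d against 24h, instead of 244, 785 and 344, and 0 members were called. The 24h against 0h value of St6gal1 was then 1.19 (adjusted p = 0.254).

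Alternatives were RLE and library-size scaling, DESeq2 1.42.0, no filter, stretch genes only, all 18 libraries, each library left out, replicate blocks and shScramble alone. A block by nearest-library pair was added after seeing the data. Its pairs were picked for likeness on the same counts, so neither its hairpin values nor its calls over time can serve as a check.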

Additional observations from a re-analysis of the deposited data

Results flagged for a closer look

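The 3 libraries of 0h labelled sample 1 were left out of the reported comparisons. They entered the alternative with all 18 libraries. They also entered the 18-library means that set the chromosome 16 stretch and the share of genes reaching 20 CPM. Of the enzyme genes, 6 of 7 were higher in each of them than in every sample 2 library of the same time. The share of all rows that were so was not computed. The chromosome 16 stretch as a whole held up to 12.5% of counts over all 18 libraries, against at most 7.79% over the 15 used. The count therefore does not set the enzymes apart. The ratio of mean CPM was 4.36 for St6gal1, 2.38 for Xxylt1, 2.27 for Pmm2, 2.17 for B4galt4, 1.86 for Alg3 and 1.28 for Alg1. St6gal1 was at 33.2, 52.6 and 60.0 CPM in these libraries against 10.3, 11.1 and 12.02 CPM in the sample 2 libraries. St3gal6, the other sialyltransferase gene, had a ratio of 1.05 and overlapping values. Scaled by library size alone, a different scale, the median ratio over 370 genes of the chromosome 16 stretch was 1.79. The differences were not tested.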

How the results depend on the processing

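Of 651 alternative values for the members' log2 changes, 606 kept direction and side of the threshold, 39 turned direction and 6 crossed the threshold, all 6 of them values of St6gal1. St6gal1 was called for 24h against 0h by DESeq2 and without shRcor2-18 24h sample 2 (1.88, adjusted p = 0.0193), and for 7d against 24h by DESeq2, with stretch genes only (-1.15, adjusted p = 0.0359), without shRcor2-18 24h sample 2 (-1.31, adjusted p = 0.0337) and with the nearest-library pair block (-1.0016, adjusted p = 0.0461), so 1 member was called in each. Over its alternatives the adjusted p ran from 0.0103 to 0.744 and from 0.0337 to 0.675. With all 18 libraries, 24h against 0h turned to -0.37 for B4galt4, -0.13 for Alg1, -0.46 for Alg3 and -0.54 for Pmm2, and 7d against 0h to -0.82 for St6gal1, -0.11 for B4galt4, -0.33 for Alg3 and -0.68 for Pmm2. The other turns are listed next. Pmm2, 7d against 0h, was -0.017 with library size only, -0.031 with stretch genes only and -0.038 with the block of number within construct, which gave 0.19 for St3gal6 and -0.00016 for B4galt4 at 24h against 0h. With shScramble alone Alg3 was -0.41 for 24h against 0h and -0.31 for 7d against 0h, and Alg1 was -0.029 for 7d against 24h. For the hairpins, Xxylt1 was -0.025 with library size only, -0.0052 with no filter and -0.019 with the pair block, which gave 0.14 for B4galt4 and 0.012 for Alg3 and, with no turn, 0.11 for St3gal6 (from 0.77) and -0.011 for St6gal1 (from -0.31). Leaving out 1 library each, the ranges were -0.060 to 0.099 for Pmm2, 7d against 0h; -0.088 to 0.33 for Alg3, 24h against 0h; and for the hairpins -0.18 to 0.13 for B4galt4, -0.055 to 0.085 for Xxylt1 and -0.14 to 0.015 for Pmm2.

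Rows called for 24h against 0h, 7d against 0h, 7d against 24h and the hairpins were 566, 1394, 1076 and 109 by DESeq2. With stretch genes only they were 21, 85, 60 and 0, where fewer rows are tested. Leaving out 1 library gave 126 to 247, 315 to 798, 126 to 325 and 0 to 15, with 0 to 1 member called for 24h against 0h and for 7d against 24h. The replicate block of number within construct gave 63, 478 and 193, and that of number within time 0 for the hairpins; numbers across constructs were not taken as pairing, since 1 of 6 correlations was under 0.1 (r = -0.04 to 0.25 at 24h and 0.15 to 0.35 at 7d). With all 18 libraries 39 rows were called for 7d against 24h and 0 for the hairpins. With no filter 20 were called for the hairpins. With shScramble alone the counts were 50, 152 and 10, from fewer libraries. The pair block, chosen after seeing the data, gave 734 for 7d against 24h and 1 for the hairpins. Other causes were not tested. Counts of 13 to 66 limit St3gal6, and 1 library per construct limits every 0h value.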

Other observations

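Profiles over the 15 libraries were compared between each enzyme gene and the rest of 355 coding genes of the stretch, members included, as root mean square differences of centred log2 levels, with no test; these genes were looked at after the values were seen. Nearest to St6gal1 were Masp1, a complement lectin pathway protease gene (0.53), Bbx (0.54) and Atp6v1a, a subunit of the vacuolar proton pump (0.59), against a spread of 0.75 of St6gal1 itself and a median difference of 0.81. Nearest to St3gal6 were Snai2, a transcriptional repressor gene (0.39), Hunk (0.41) and Gm4737 (0.43), and nearest to B4galt4 were Trp63 (0.299), Gm20695 (0.300) and Golgb1, a Golgi matrix protein gene (0.305). Pmm2 lay nearest to Nagpa, another gene on the glycosylation list (0.11). The spread of Pmm2 itself was only 0.14, and its median difference was 0.29. Alg3 lay nearest to Abhd10 (0.19) and Xxylt1 to Ifnar2 (0.11), genes not on that list.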
